A study of Mus musculus with 12 samples.

Results

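The genes of MHC class II presentation were followed in resting B (RB) cells under each condition of the study. They were taken as every non-control spot whose gene name was one of H2-Aa, H2-Ab1, H2-Eb1, H2-DMa, H2-DMb1, H2-DMb2, H2-Oa, H2-Ob, Cd74 and Ciita. These 10 genes, of 50090 symbols on the array, were read by 17 of 61307 probes. RB cells had been purified from spleens of female BALB/c mice, aged 6 weeks per the labels, by removal of CD43-bearing cells, and were harvested after 4 h of culture. The conditions were unstimulated cells, cells with Pam2CSK4 (a lipopeptide ligand of TLR-2), cells with anti-CD86 antibody, cells with anti-CD86 and Pam2CSK4 together (TLR2.CD86), cells with anti-CD40 antibody, and cells with anti-CD40 and Pam2CSK4. Each of the 6 conditions had 2 arrays. The study describes the arrays of a condition as biological replicates. The labels number them and do not say which animals or cultures each came from. Each p-value therefore measures the spread between these samples, pooled over the 6 conditions. An isotype control is not analysed here. With 12 arrays of 1 colour, the number of arrays limits the precision.

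An MHC class II molecule is a pair of an alpha and a beta chain that carries peptides from endosomes to the cell surface for recognition by CD4 T cells. In mouse it comes as I-A, the product of H2-Aa and H2-Ab1, and as I-E, the product of H2-Ea and H2-Eb1. New molecules leave the endoplasmic reticulum bound to the invariant chain, the product of Cd74, which is then cut down by endosomal proteases. H2-M, a pair of the H2-DMa chain with an H2-DMb chain, exchanges the last fragment of the invariant chain for peptide, and H2-O, the pair of H2-Oa and H2-Ob, holds H2-M in check in B cells. Ciita encodes the coactivator that class II promoters depend on. It binds no DNA itself and is held there by RFX, NF-Y and CREB factors on a conserved row of short boxes named X and Y. B cells, dendritic cells and macrophages present antigen in this way, and RB cells express these genes before any stimulus.

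The promoter stretches of 5 members are shown because each carries the core of the Y box and because these genes did not move together in the comparisons. All of them but H2-Oa also carry a further motif before that core. They are the 150 bases before the RefSeq start site on GRCm38.p6, which is not the build of the array annotation (mm9), and they are written in the direction of the gene. GATTGG, the core of the Y box, is in capitals, as is TGATG or TGACG where it lies 10 to 30 bases before GATTGG. Of these, TGACG is the core of CREB-type sites.
H2-DMb1, chr17:34153041-34153190, plus strand: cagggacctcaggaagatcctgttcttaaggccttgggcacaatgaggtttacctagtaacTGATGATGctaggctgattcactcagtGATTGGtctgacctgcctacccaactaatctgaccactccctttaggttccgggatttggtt
H2-DMb2, chr17:34145099-34145248, plus strand: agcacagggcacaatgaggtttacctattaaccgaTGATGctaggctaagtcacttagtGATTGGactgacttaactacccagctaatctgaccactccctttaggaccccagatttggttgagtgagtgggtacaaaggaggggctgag
H2-Oa, chr17:34092229-34092378, plus strand: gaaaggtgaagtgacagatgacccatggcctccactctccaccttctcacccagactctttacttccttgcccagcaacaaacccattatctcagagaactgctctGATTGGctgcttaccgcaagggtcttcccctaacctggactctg
H2-Aa, chr17:34287824-34287973, minus strand: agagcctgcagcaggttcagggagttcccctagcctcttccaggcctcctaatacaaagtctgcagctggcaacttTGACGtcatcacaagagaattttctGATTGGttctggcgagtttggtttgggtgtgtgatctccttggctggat
H2-Eb1, chr17:34305717-34305866, plus strand: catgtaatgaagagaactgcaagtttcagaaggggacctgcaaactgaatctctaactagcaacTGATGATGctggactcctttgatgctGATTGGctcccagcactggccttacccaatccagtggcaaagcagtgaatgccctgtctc
RefSeq windows were on hand for 7 of the 10 members. H2-Ab1, Cd74 and Ciita had none. In the 200 bases before the start, searched on both strands, GATTGG was found in 12.9% of all 32851 promoter windows and in a window of all 7 members. TGATG was found in 28.5% and TGACG in 15.7% of the windows. The ordered pair, TGATG or TGACG followed by GATTGG at 10 to 30 bases, was found in 0.566% of the windows and in those of 5 members, namely H2-Aa, H2-DMb1, H2-DMb2, H2-Eb1 and H2-Ob. In H2-DMb1 and H2-Eb1 there were overlapping TGATG matches, and in H2-Aa TGACG matches overlapped on opposite strands. H2-Oa had GATTGG alone. H2-DMa had 2 windows, and neither held the ordered pair. These are matches of letters and were not tested as binding sites.

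Probes are shown where probes of the same gene gave different values or where a probe could read more than its gene.
H2-Ab1, brighter unsaturated probe: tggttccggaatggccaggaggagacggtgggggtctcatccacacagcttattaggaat
H2-Ab1, dimmer probe: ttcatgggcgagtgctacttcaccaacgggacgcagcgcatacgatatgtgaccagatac
H2-Aa, brighter probe: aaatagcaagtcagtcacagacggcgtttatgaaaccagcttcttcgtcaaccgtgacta
H2-Aa, dimmer probe: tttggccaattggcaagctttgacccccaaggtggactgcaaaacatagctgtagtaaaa
H2-DMb2, brighter probe: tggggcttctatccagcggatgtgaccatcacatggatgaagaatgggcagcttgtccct
All these probes are 60 bases long. The brighter H2-DMb2 probe is listed in the array annotation for the H2-DMb1 transcript too, so that its signal cannot be assigned to H2-DMb2 alone. The dimmer H2-Ab1 and H2-Aa probes lie in the domains that form the peptide groove, which differ between mouse strains, and how well they match the BALB/c alleles was not tested.

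Every one of the 17 probes was well above background on all 12 arrays. Levels are given as log2 processed signal minus the array's own 75th percentile, and they are compared only between arrays for the same probe. Of the 17 probes, 4 were saturated on all 12 arrays, which were the 3 probes of Cd74 and the brightest of the 3 probes of H2-Ab1. Cd74, the invariant chain, could therefore be given no fold change in any comparison. The other 9 genes were read on their brightest unsaturated probe. The 12 arrays lay on 2 slides, each scanned in its own run. Both arrays of unstimulated cells and of anti-CD40 with Pam2CSK4 were on slide 1, with 8 arrays in all. The 4 arrays of slide 2 were the replicate 2 arrays of the other 4 conditions. Among the 13 unsaturated probes of the members, 12 differed between slides within conditions, 11 of them lower on slide 2 (limma, adjusted p under 0.05), against 57.2% of all probes tested. For this reason each fold change of a member is given first from the fit without a slide term. It is then given from a fit with slide as a further term, called slide-blocked, with the value on slide 1 alone beside it. Slide 1 holds 1 array of each of 4 stimuli, so their slide 1 values rest on 1 stimulated array. Unstimulated cells and anti-CD40 with Pam2CSK4 lay wholly on slide 1. Their fold change is therefore the same by design in each of these values, and only its adjusted p can differ. Where 1 array is left out below, that fold change can move only if the array belongs to these conditions. Slide 2 held no unstimulated array and gave no value of its own. Without a slide term the spread is pooled over conditions, so its p-values carry the slide difference of conditions on both slides. For H2-Ab1, on the probe read, the SD was 0.024 in unstimulated cells and 0.028 with anti-CD40 and Pam2CSK4. It was 0.34 to 0.47 in the 4 conditions on both slides. The median log2 fold change of all probes stayed between -0.07 and 0.01 in the comparisons of stimulated with unstimulated cells. With arrays scaled to their median instead it was -0.27 with Pam2CSK4, -0.19 with anti-CD86 and -0.32 with TLR2.CD86. It was -0.58 with anti-CD40 and -0.10 with anti-CD40 and Pam2CSK4. No member was then called in any comparison, and the share of all probes called was at most 1.47%, with anti-CD40 and Pam2CSK4. The median intensity of an array lay between 17.3 and 51.3. The lowest intensity flagged well above background was 19.5 to 32.9. The highest median was on anti-CD40 replicate 2, and the next, 33.5, on TLR2.CD86 replicate 2.

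**Figure D1:**
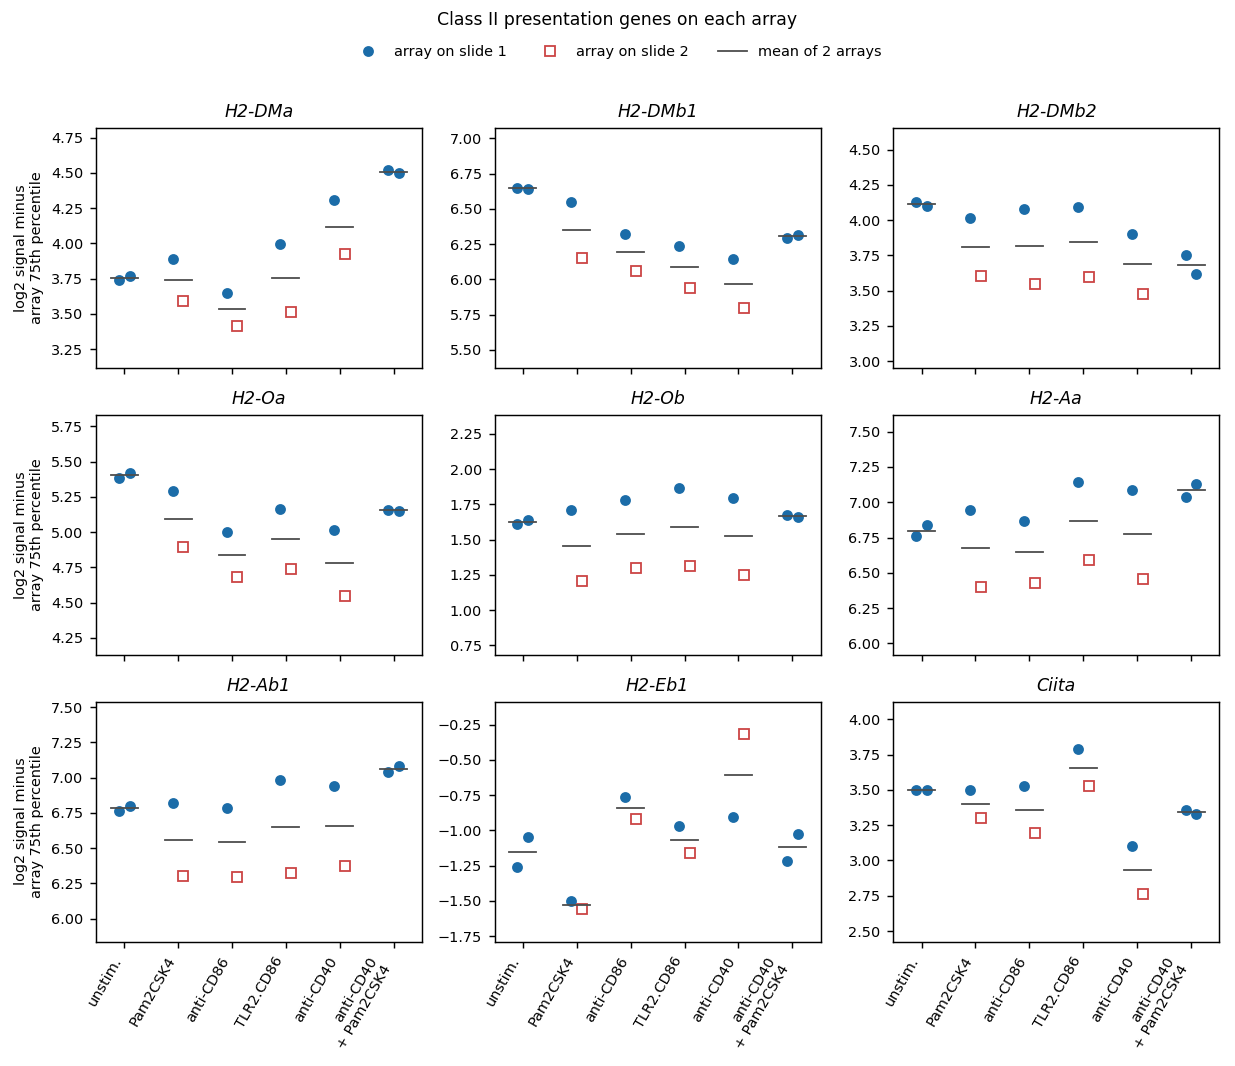
Log2 processed signal minus the 75th percentile of the array for the 9 genes with an unsaturated probe, by condition. Filled circles are arrays on slide 1, open squares arrays on slide 2, and lines the mean of 2 arrays. H2-DMa was highest on both arrays of anti-CD40 with Pam2CSK4, and the slide 2 array was the lower of its condition in all panels except H2-Eb1 with anti-CD40.

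Few of the 9 genes passed the test without the slide term. Against unstimulated cells, H2-DMb1 fell with anti-CD40 and H2-DMa rose with anti-CD40 and Pam2CSK4, and these were the members called (limma, Benjamini-Hochberg adjusted p under 0.05 over 31599 probes). The share of all probes called was 16.8% with anti-CD40, where 1 of 9 members was called, and 18.2% with anti-CD40 and Pam2CSK4, where 1 of 9 was called. No member was called with Pam2CSK4 (0.146% of all probes), with anti-CD86 (2.17%) or with TLR2.CD86 (10.8%). At an unadjusted p under 0.05 the members were 0, 2 and 1 of 9 in these 3 comparisons, against 15.8%, 23.2% and 30.5% of all probes. The median log2 fold change of the 9 genes was -0.22 with Pam2CSK4, -0.22 with anti-CD86, -0.04 with TLR2.CD86, -0.13 with anti-CD40 and 0.03 with anti-CD40 and Pam2CSK4.

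In the slide-blocked fit more members were called, as were more of all probes. With anti-CD40, 6 of 9 members were called against 37.3% of all probes, and with anti-CD40 and Pam2CSK4 6 of 9 against 47.5%. TLR2.CD86 gave 5 of 9 against 35.1%, anti-CD86 3 of 9 against 28.5%, and Pam2CSK4 0 of 9 against 11.1%, with 1 of 9 members and 29.9% of all probes at an unadjusted p under 0.05. The called members split in direction. H2-DMb1 and H2-Oa were lower with each stimulus that had calls. H2-DMa was higher with both stimuli that contained anti-CD40, H2-Ob was higher with anti-CD86, TLR2.CD86 and anti-CD40, H2-Aa was higher with TLR2.CD86, with anti-CD40 and with anti-CD40 and Pam2CSK4, and Ciita was higher with TLR2.CD86 and lower with anti-CD40. For a difference of any kind among the 6 conditions, no member passed in the limma fit (20.4% of all probes) or in the one-way analysis without moderation (18.4%), and 8 of 9 passed slide-blocked (60%), all but H2-Eb1. Slide-blocked, the median of the 9 genes was 0.04 with Pam2CSK4, 0.00 with anti-CD86, 0.15 with TLR2.CD86, 0.15 with anti-CD40 and 0.03 with anti-CD40 and Pam2CSK4.

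**Figure D2:**
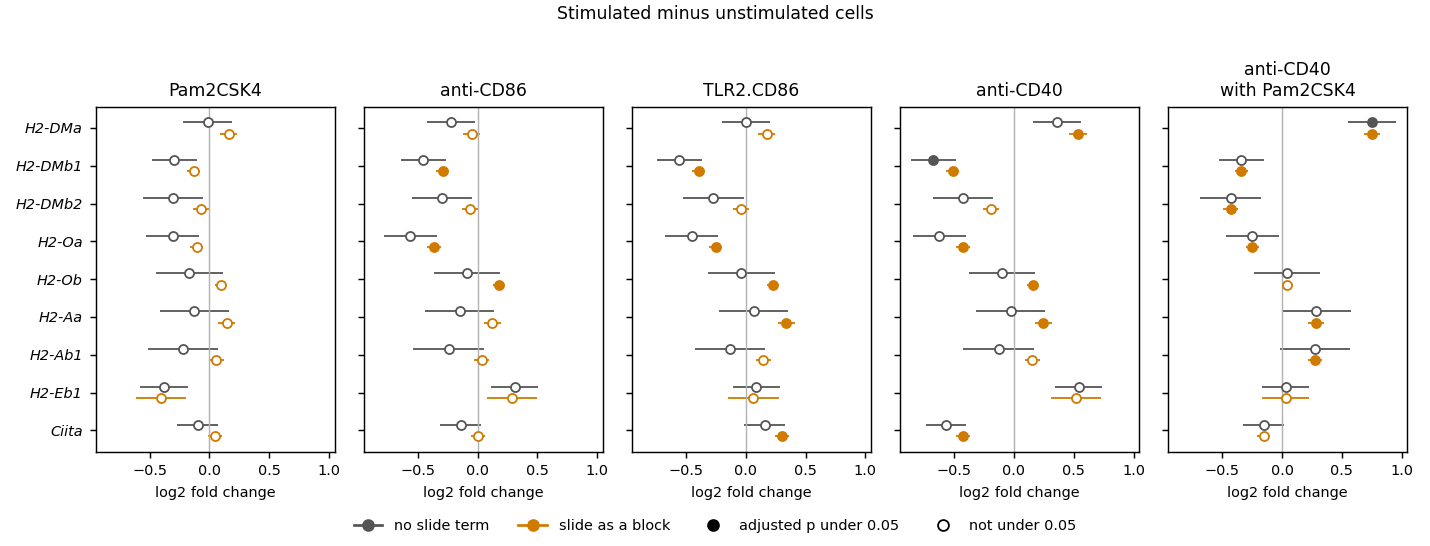
Log2 fold change from unstimulated cells with its SE for the 9 genes, one panel per stimulus. Grey points are the fit without a slide term, orange points the slide-blocked fit, and filled points have an adjusted p under 0.05. H2-DMa lies to the right and H2-DMb1 and H2-Oa to the left in both panels with anti-CD40.

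H2-DMa, the alpha chain of the peptide editor H2-M, was the member called with anti-CD40 and Pam2CSK4. Its level on the arrays, replicate 1 and then 2, was 3.74 and 3.77 in unstimulated cells, 3.89 and 3.59 with Pam2CSK4, 3.65 and 3.42 with anti-CD86, 4.00 and 3.52 with TLR2.CD86, 4.31 and 3.92 with anti-CD40, and 4.52 and 4.50 with anti-CD40 and Pam2CSK4. Both arrays of anti-CD40 with Pam2CSK4 stood above the other 10 arrays, and both arrays of anti-CD40 stood above the unstimulated arrays. The log2 fold change with anti-CD40 and Pam2CSK4 was 0.75 (SE 0.20, adjusted p = 0.0365), a 1.69-fold rise, and in the slide-blocked fit 0.75 (adjusted p = 0.000294, slide 1 alone 0.75). With anti-CD40 alone it was 0.36 (SE 0.20, adjusted p = 0.247), and 0.54 (adjusted p = 0.00214, slide 1 alone 0.55) slide-blocked, but -0.21 where arrays were scaled to their median. The call for anti-CD40 with Pam2CSK4 was lost without any 1 of the arrays of unstimulated cells, anti-CD86 or anti-CD40 with Pam2CSK4, with the log2 fold change between 0.74 and 0.77 over the leave-one-out fits and the adjusted p between 0.0258 and 0.164.

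H2-DMb1, a beta chain of H2-M, went the other way. Its level was 6.65 and 6.64 in unstimulated cells, 6.55 and 6.15 with Pam2CSK4, 6.33 and 6.06 with anti-CD86, 6.24 and 5.94 with TLR2.CD86, 6.14 and 5.80 with anti-CD40, and 6.29 and 6.32 with anti-CD40 and Pam2CSK4. The unstimulated arrays were higher than each of the 10 stimulated arrays. The log2 fold change with anti-CD40 was -0.67 (SE 0.19, adjusted p = 0.0442), a 1.6-fold fall, and -0.51 (adjusted p = 0.000919, slide 1 alone -0.50) slide-blocked. Without the anti-CD40 array on slide 2 it was -0.50 (adjusted p = 0.209), and the call was also lost without any 1 array of unstimulated cells, anti-CD86 or anti-CD40 with Pam2CSK4. For TLR2.CD86 the log2 fold change was -0.56 (adjusted p = 0.0902), and -0.39 (adjusted p = 0.00302, slide 1 alone -0.41) slide-blocked. For anti-CD86 these values were -0.45 (adjusted p = 0.196) and -0.29 (adjusted p = 0.0109, slide 1 alone -0.32), and for anti-CD40 with Pam2CSK4 they were -0.34 (adjusted p = 0.244) and -0.34 (adjusted p = 0.00229, slide 1 alone -0.34).

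H2-DMb2 is the other H2-M beta chain gene, and its brighter probe is the one shared with H2-DMb1. On that probe the level was 4.13 and 4.10 in unstimulated cells, 4.02 and 3.60 with Pam2CSK4, 4.08 and 3.55 with anti-CD86, 4.09 and 3.60 with TLR2.CD86, 3.90 and 3.48 with anti-CD40, and 3.75 and 3.62 with anti-CD40 and Pam2CSK4. On slide 1, the arrays with anti-CD40, alone or with Pam2CSK4, were lower than all others. With anti-CD40 and Pam2CSK4 the log2 difference on this probe came to -0.43 (SE 0.25, adjusted p = 0.277), and -0.43 (adjusted p = 0.00206, slide 1 alone -0.43) slide-blocked. The dimmer probe, listed for H2-DMb2 alone, stood at 1.79 and 1.87 in unstimulated cells, 1.47 and 1.20 with Pam2CSK4, 1.32 and 1.06 with anti-CD86, 1.49 and 1.1 with TLR2.CD86, 1.68 and 1.33 with anti-CD40, and 1.38 and 1.72 with anti-CD40 and Pam2CSK4. On both probes the 10 stimulated arrays lay below the unstimulated arrays, and the order of the stimuli differed between the probes. Both probes read lower on slide 2, where no unstimulated array lay (log2 slide difference -0.47 on the brighter and -0.32 on the dimmer probe). On slide 1 the brighter probe was 4.09 with TLR2.CD86 and 4.08 with anti-CD86, against 4.10 on the lower unstimulated array.

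Because the scaling of an array shifts all its probes alike, the chains of H2-M were also set against each other within each array, with no test, since the pair was chosen after its values were seen. The change in H2-DMa minus H2-DMb1 from its mean in unstimulated cells was 1.06 and 1.01 with anti-CD40 and 1.11 and 1.07 with anti-CD40 and Pam2CSK4. It was 0.65 and 0.46 with TLR2.CD86, 0.23 and 0.32 with Pam2CSK4, and 0.21 and 0.25 with anti-CD86, and the unstimulated arrays were at -0.02 and 0.02. All 4 arrays with anti-CD40 lay above the other 8, on both slides. A slide difference need not cancel in this way, since it varied by probe, and it was -0.35 for H2-DMa and -0.32 for H2-DMb1 (log2, slide 2 minus slide 1 within conditions). The difference shows unequal change of the chains, not which of them changed.

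**Figure D3:**
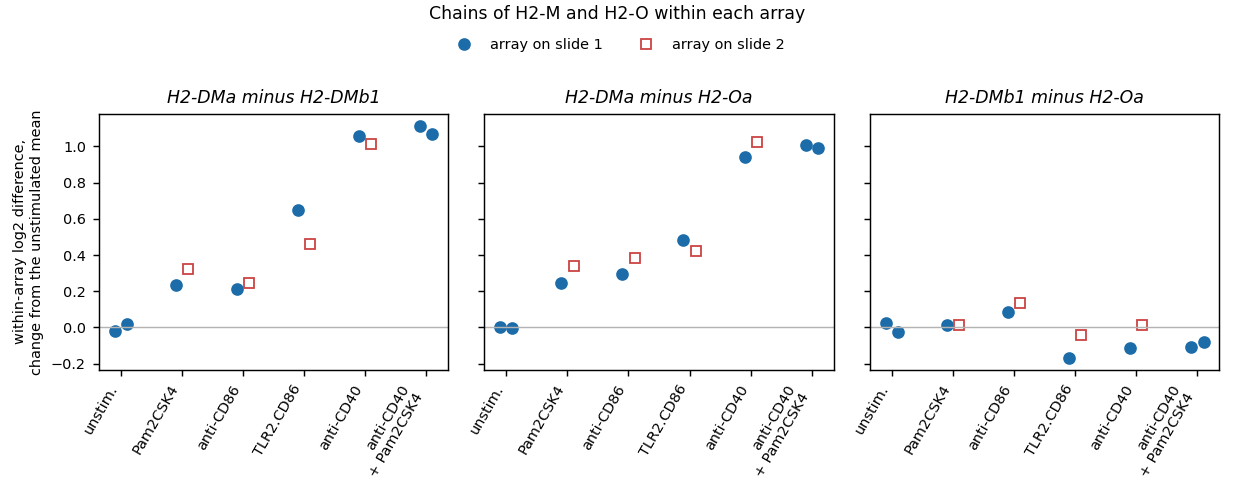
Within-array log2 differences between H2-DMa and H2-DMb1, H2-DMa and H2-Oa, and H2-DMb1 and H2-Oa, each as the change from its mean over the 2 unstimulated arrays. Filled circles are arrays on slide 1 and open squares arrays on slide 2. The differences that contain H2-DMa reach 0.94 to 1.11 on all arrays with anti-CD40, while that of H2-DMb1 and H2-Oa stays between -0.17 and 0.14.

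H2-Oa, the alpha chain of H2-O, was, like H2-DMb1, lower on every stimulated array. Its level was 5.38 and 5.42 in unstimulated cells, 5.29 and 4.90 with Pam2CSK4, 5.0 and 4.68 with anti-CD86, 5.16 and 4.74 with TLR2.CD86, 5.01 and 4.54 with anti-CD40, and 5.16 and 5.15 with anti-CD40 and Pam2CSK4. The anti-CD40 array on slide 2 was the lowest of the 12. No comparison of H2-Oa with unstimulated cells passed without the slide term, the log2 fold change being -0.62 (SE 0.22, adjusted p = 0.0880) with anti-CD40, -0.56 (adjusted p = 0.179) with anti-CD86, -0.45 (adjusted p = 0.208) with TLR2.CD86 and -0.25 (adjusted p = 0.494) with anti-CD40 and Pam2CSK4. Slide-blocked, these were -0.42 (adjusted p = 0.00214, slide 1 alone -0.39), -0.36 (adjusted p = 0.00643, slide 1 alone -0.40), -0.25 (adjusted p = 0.0162, slide 1 alone -0.24) and -0.25 (adjusted p = 0.0101, slide 1 alone -0.25). Without the anti-CD40 array on slide 1, the anti-CD40 value was -0.86 (adjusted p = 0.0442), and without the one on slide 2 it was -0.39 (adjusted p = 0.392). The dimmer H2-Oa probe gave 4.73 and 4.76 in unstimulated cells and 4.34 and 3.95 with anti-CD40, in the same direction. After each slide's mean was taken off, H2-Oa and H2-DMb1 correlated at r = 0.89 over the 12 arrays, whose values of both genes share each array's scaling.

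H2-Ob, the beta chain of H2-O, stood at 1.61 and 1.64 in unstimulated cells, 1.71 and 1.20 with Pam2CSK4, 1.78 and 1.30 with anti-CD86, 1.87 and 1.31 with TLR2.CD86, 1.80 and 1.25 with anti-CD40, and 1.68 and 1.66 with anti-CD40 and Pam2CSK4. Every stimulated array on slide 1 was above the unstimulated arrays and every array on slide 2 was below them. The log2 change of H2-Ob with TLR2.CD86 was -0.04 (adjusted p = 0.956) and turned to 0.23 (adjusted p = 0.0148, slide 1 alone 0.24) slide-blocked. The direction of this gene therefore rested on how the slide was treated.

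H2-Aa and H2-Ab1 encode the alpha and beta chains of I-A. H2-Aa was 6.76 and 6.84 in unstimulated cells, 6.95 and 6.40 with Pam2CSK4, 6.87 and 6.43 with anti-CD86, 7.14 and 6.59 with TLR2.CD86, 7.09 and 6.46 with anti-CD40, and 7.04 and 7.13 with anti-CD40 and Pam2CSK4. On slide 1 each stimulated array was above both unstimulated arrays. For H2-Aa the log2 change was 0.29 (SE 0.29, adjusted p = 0.554) with anti-CD40 and Pam2CSK4, 0.07 (adjusted p = 0.908) with TLR2.CD86 and -0.03 (adjusted p = 0.963) with anti-CD40. Slide-blocked, these became 0.29 (adjusted p = 0.0129, slide 1 alone 0.29), 0.34 (adjusted p = 0.0118, slide 1 alone 0.34) and 0.25 (adjusted p = 0.0337, slide 1 alone 0.29), and scaled to the array median 0.18, -0.22 and -0.59. The dimmer H2-Aa probe stood at 3.97 and 3.95 in unstimulated cells, 3.87 and 4.25 with Pam2CSK4, and 3.94 and 4.25 with anti-CD86. It was 4.22 and 4.27 with TLR2.CD86, 4.26 and 4.50 with anti-CD40, and 4.04 and 4.17 with anti-CD40 and Pam2CSK4. With anti-CD40 both arrays of this probe were above the unstimulated arrays, against a log2 change of -0.03 on the brighter probe. The dimmer H2-Aa probe was higher on slide 2 by 0.25, while the brighter probe had a log2 difference of -0.54 there.

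H2-Ab1 was 6.77 and 6.80 in unstimulated cells, 6.82 and 6.30 with Pam2CSK4, 6.78 and 6.30 with anti-CD86, 6.98 and 6.32 with TLR2.CD86, 6.94 and 6.37 with anti-CD40, and 7.04 and 7.08 with anti-CD40 and Pam2CSK4. Both arrays of anti-CD40 with Pam2CSK4 were the highest of the 12. The log2 fold change there was 0.28 (SE 0.29, adjusted p = 0.579), and 0.28 (adjusted p = 0.00927, slide 1 alone 0.28) slide-blocked. The dimmer H2-Ab1 probe stood at 3.59 and 3.71 in unstimulated cells, 4.17 and 3.83 with Pam2CSK4, 4.26 and 4.05 with anti-CD86, 4.56 and 4.15 with TLR2.CD86, 3.94 and 3.70 with anti-CD40, and 4.30 and 4.37 with anti-CD40 and Pam2CSK4. On this probe the log2 change was 0.71 (SE 0.18, adjusted p = 0.0475) with TLR2.CD86, and 0.86 (adjusted p = 0.00107, slide 1 alone 0.91) slide-blocked. With anti-CD40 and Pam2CSK4 it was 0.68 (adjusted p = 0.0365), and 0.68 (adjusted p = 0.000576, slide 1 alone 0.68) slide-blocked. Of the leave-one-out fits, the TLR2.CD86 call on this probe held only in those without an anti-CD40 array, with the log2 fold change between 0.50 and 0.91 over all of them. The call with anti-CD40 and Pam2CSK4 was lost without any 1 array of unstimulated cells, anti-CD86 or anti-CD40 with Pam2CSK4. With Pam2CSK4, anti-CD86, TLR2.CD86 and anti-CD40 the mean of the brighter unsaturated probe lay below unstimulated cells (6.56, 6.54, 6.65 and 6.66 against 6.78). The mean of the dimmer probe lay above them (4.00, 4.16, 4.36 and 3.82 against 3.65). With anti-CD40 and Pam2CSK4 both probes were higher. The unsaturated probes of H2-Ab1 thus disagreed in size and, without the slide term, in direction with most stimuli, and the third was saturated.

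H2-Eb1, the beta chain of I-E, was read by 1 dim probe (intensity 108 to 288) and was the gene with no called difference between slides. It stood at -1.26 and -1.05 in unstimulated cells, -1.50 and -1.56 with Pam2CSK4, -0.76 and -0.92 with anti-CD86, -0.97 and -1.16 with TLR2.CD86, -0.90 and -0.31 with anti-CD40, and -1.22 and -1.03 with anti-CD40 and Pam2CSK4. Both Pam2CSK4 arrays were below, and both anti-CD86 and both anti-CD40 arrays above, the unstimulated arrays. With anti-CD40 the log2 change came to 0.54 (SE 0.20, adjusted p = 0.0943), 0.52 (adjusted p = 0.0988, slide 1 alone 0.25) slide-blocked, and -0.02 scaled to the array median. Without the anti-CD40 array on slide 1 it was 0.84 (adjusted p = 0.0192), and without the one on slide 2 it was 0.25 (adjusted p = 0.433). H2-Ea, the alpha chain of I-E and no member here, was 4.18 and 4.17 in unstimulated cells, 3.81 and 3.77 with anti-CD86, and 3.90 and 3.65 with TLR2.CD86. It was called with no stimulus in the fit without a slide term, and slide-blocked it was lower with anti-CD86 (log2 -0.29, adjusted p = 0.0287) and with TLR2.CD86 (log2 -0.31, adjusted p = 0.0192).

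Ciita, the coactivator of the class II promoters, had its lowest mean with anti-CD40 and its highest with TLR2.CD86. It stood at 3.50 and 3.50 in unstimulated cells, 3.50 and 3.30 with Pam2CSK4, 3.53 and 3.19 with anti-CD86, 3.79 and 3.53 with TLR2.CD86, 3.10 and 2.76 with anti-CD40, and 3.36 and 3.33 with anti-CD40 and Pam2CSK4. Both TLR2.CD86 arrays were above, and both anti-CD40 arrays below, the unstimulated arrays. With anti-CD40 the log2 change came to -0.57 (SE 0.17, adjusted p = 0.0565), and -0.42 (adjusted p = 0.00216, slide 1 alone -0.40) slide-blocked. Without the anti-CD40 array on slide 1 it was -0.74 (adjusted p = 0.0349), and without the one on slide 2 it was -0.40 (adjusted p = 0.258). With TLR2.CD86 it was 0.16 (adjusted p = 0.560), 0.30 (adjusted p = 0.00887, slide 1 alone 0.29) slide-blocked, and -0.13 scaled to the array median. Adding Pam2CSK4 to anti-CD40 gave 0.41 (adjusted p = 0.239), and 0.27 (adjusted p = 0.0264, slide 1 alone 0.24) slide-blocked.

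The level of Ciita and those of the class II chains did not share one order over the conditions. With anti-CD40, where Ciita was lowest, H2-DMa and H2-Eb1 had means above those of unstimulated cells, while H2-DMb1 and H2-Oa had means below them. Over the 12 arrays, 28 of the 36 pairs of members correlated above 0, and after each slide's mean was taken off 18 of 36 did. Ciita and H2-DMa then correlated at r = -0.58, and H2-DMa and H2-Ab1 at r = 0.91. The 5 other named genes closest to Ciita among 9956 were Mib2, Gstt2, Dtx2, Sh2d3c and Siglecg, with r from 0.94 to 0.96 over 12 arrays, both before and after slide means were taken off. The 5 closest to the mean profile of the members were Bag1, Klhdc3, Map1lc3b, Mtmr1 and Mrpl38, with r from 0.96 to 0.99. After slide means were taken off, r was 0.69 for Bag1, 0.49 for Mrpl38, and between -0.02 and 0.15 for the other 3.

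When the combined stimuli were set against each other or against 1 signal, H2-DMa was the member called. Anti-CD40 with Pam2CSK4 against TLR2.CD86 gave 1 of 9 members against 12.3% of all probes, with H2-DMa at a log2 difference of 0.75 (SE 0.20, adjusted p = 0.0479), and 0.58 (adjusted p = 0.00163, slide 1 alone 0.51) slide-blocked. Without the TLR2.CD86 array on slide 2 this was 0.51 (adjusted p = 0.231), and of the leave-one-out fits the call held only in those without TLR2.CD86 replicate 1 or an anti-CD40 array. Against Pam2CSK4 alone, anti-CD40 with Pam2CSK4 gave H2-DMa a log2 difference of 0.77 (adjusted p = 0.0511), and 0.59 (adjusted p = 0.00176, slide 1 alone 0.62) slide-blocked. That difference passed the threshold in the fits without a TLR2.CD86 array (adjusted p = 0.0373) or an anti-CD40 array (adjusted p = 0.0413). No member was called there in the limma fit over all arrays (9.97% of all probes), nor for anti-CD40 with Pam2CSK4 against anti-CD40 (2.91%), TLR2.CD86 against Pam2CSK4 (0.0633%) or TLR2.CD86 against anti-CD86 (0.225%). At an unadjusted p under 0.05 there were 1, 2, 1 and 0 of 9 members in these 4 comparisons, against 26.8%, 19.8%, 10.4% and 8.9% of all probes.

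In the slide-blocked fit the members called were 4 of 9 for anti-CD40 with Pam2CSK4 against TLR2.CD86 (34.6% of all probes), 5 of 9 against Pam2CSK4 (31.5%) and 1 of 9 against anti-CD40 (15.2%), the last being Ciita. TLR2.CD86 gave 2 of 9 against Pam2CSK4 (11%), with Ciita higher and H2-DMb1 lower, and 1 of 9 against anti-CD86 (7.74%), which was Ciita. For the effect of both signals beyond the sum of each alone, no member was called with CD86 (0.019% of all probes) or with CD40 (1.16%) in the limma fit, with 0 and 1 of 9 members, and 4.29% and 19.4% of all probes, at an unadjusted p under 0.05. Slide-blocked, the count was again 0 in both, against 0.234% and 8.59% of all probes, with 2 and 4 of 9 members, and 16.4% and 26.3% of all probes, at an unadjusted p under 0.05.

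Around the members, 38 genes of the pathway were listed by role, of which 31 had a probe and 30 were tested. The counts and fold changes that follow are from the fit without the slide term. The counts are to be read beside the share of all probes given above for the same stimulus. Where a stimulus had an array on slide 2, its fold changes also hold any slide difference. Of 6 factors that act on the Ciita gene, 3 rose with anti-CD40 and Pam2CSK4, 1 rose and 1 fell with anti-CD40, and 1 rose with each of TLR2.CD86 and Pam2CSK4. Irf4, an interferon regulatory factor of activated B cells, was 2.90 and 2.89 in unstimulated cells, 3.93 and 4.05 with Pam2CSK4, 3.05 and 3.17 with anti-CD86, 3.98 and 4.08 with TLR2.CD86, 4.84 and 4.92 with anti-CD40, and 5.19 and 5.12 with anti-CD40 and Pam2CSK4. No stimulated array overlapped the unstimulated arrays, and the called log2 fold change was 1.1 (adjusted p = 0.0145) with Pam2CSK4, 1.13 (adjusted p = 0.00545) with TLR2.CD86, 1.98 (adjusted p = 0.000176) with anti-CD40 and 2.26 (adjusted p = 1.76e-05) with anti-CD40 and Pam2CSK4. Irf8 and Irf1, further members of that family, rose with anti-CD40 and Pam2CSK4 by 0.75 (adjusted p = 0.0371) and 0.75 (adjusted p = 0.0113) on the log2 scale.

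Among 7 factors of the class II promoter, the subunits of RFX and NF-Y were not called, and Creb1, which binds CREB-type sites, rose by 0.53 (adjusted p = 0.0211) with anti-CD40 and by 0.64 (adjusted p = 0.00785) with anti-CD40 and Pam2CSK4. The median log2 fold change of this list lay between -0.20 and 0.21 over the 5 stimuli. Among 9 genes of endosomal processing, 3 fell with TLR2.CD86, 3 fell with anti-CD40, and 1 rose and 1 fell with anti-CD40 and Pam2CSK4. Ctsb, a lysosomal protease, was 4.94 and 4.98 in unstimulated cells, 4.22 and 4.11 with TLR2.CD86, 4.55 and 4.22 with anti-CD40, and 4.05 and 4.16 with anti-CD40 and Pam2CSK4. It fell by 0.80 (adjusted p = 0.0193), by 0.58 (adjusted p = 0.0327) and by 0.86 (adjusted p = 0.00595) with these stimuli. Cst3, an inhibitor of such proteases, fell by 0.76 (adjusted p = 0.0469) with TLR2.CD86 and by 0.93 (adjusted p = 0.0199) with anti-CD40. The proteases Ctsl and Ctsd fell by 0.69 (adjusted p = 0.0322) with TLR2.CD86 and by 0.60 (adjusted p = 0.0414) with anti-CD40. Ifi30, the thiol reductase that opens disulfide bonds of antigens, rose by 0.76 (adjusted p = 0.0395) with anti-CD40 and Pam2CSK4, from 5.73 and 5.73 in unstimulated cells to 6.50 and 6.48. With arrays scaled to their median, 1 of the 30 genes was called with anti-CD40 and Pam2CSK4 (1.47% of all probes). The count was 0 with the other 4 stimuli (0.215% to 1.1%).

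**Figure D4:**
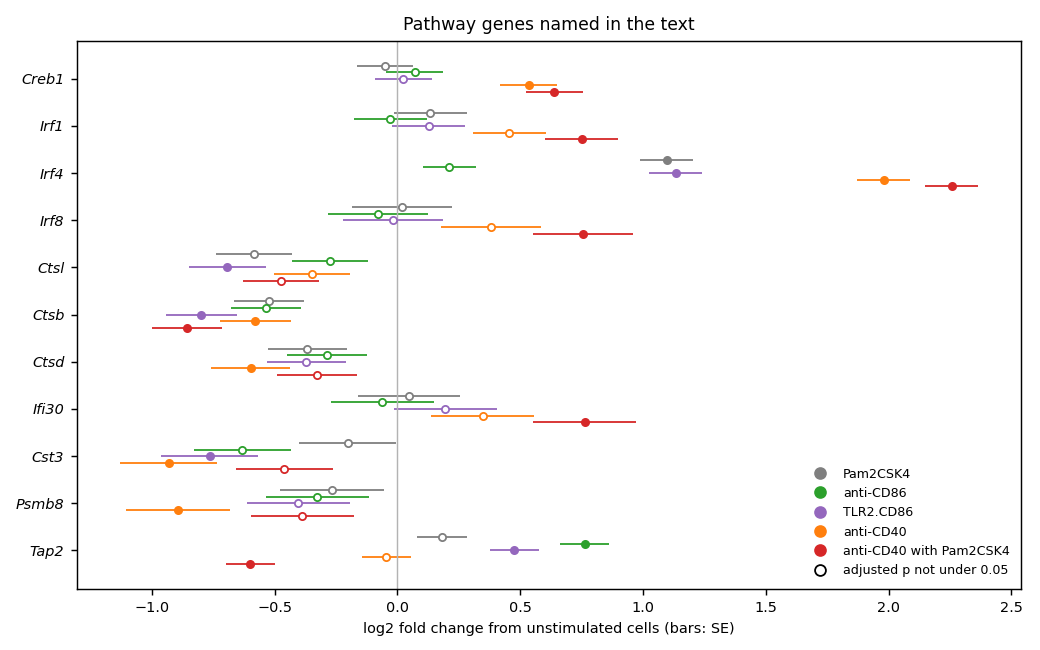
Log2 fold change from unstimulated cells, with its SE, of the 11 pathway genes named in the text that were called in at least 1 stimulation, from the fit without a slide term. Colours mark the stimulus and filled points an adjusted p under 0.05. Irf4 reaches 2.26 with anti-CD40 and Pam2CSK4, Ctsb, Ctsl, Ctsd and Cst3 lie below 0, and Tap2 lies on both sides of 0.

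Of 8 other genes of the class II region, Tap2, a subunit of the peptide transporter of class I presentation, changed in both directions. It was 1.46 and 1.37 in unstimulated cells, 2.21 and 2.15 with anti-CD86, 1.92 and 1.87 with TLR2.CD86, and 0.85 and 0.78 with anti-CD40 and Pam2CSK4, with no overlap between these groups. It rose by 0.76 (adjusted p = 0.0252) with anti-CD86 and by 0.48 (adjusted p = 0.0279) with TLR2.CD86, and fell by 0.60 (adjusted p = 0.00586) with anti-CD40 and Pam2CSK4. Psmb8, an immunoproteasome subunit, fell by 0.89 (adjusted p = 0.0274) with anti-CD40. It was 5.31 and 5.30 in unstimulated cells, and with anti-CD40 4.63 on slide 1 and 4.19 on slide 2. The other 6 were not called against unstimulated cells. Of the list of surface turnover, Cd83 was the gene with a probe, and that probe was not tested because of saturated readings.

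The label of the cells was checked on markers. All 10 B cell markers with a probe were well above background on all 12 arrays, among them Cd79a, Cd79b, Ms4a1 and Blnk. Cd79b and Blnk were saturated. In units of the array's 75th percentile, the other 8 summed to 378 to 395 in unstimulated cells. Over the stimulated arrays they summed to 273 to 369, lower as were the sums of several lists below. Markers of other cells that carry class II were read in the same way. Of 9 dendritic cell markers, 8 were well above background on all arrays, and Cd209a was so on none. The summed level of this list, in units of the array's 75th percentile, was 123 to 128 in unstimulated cells, 125 to 151 with anti-CD86, 156 to 192 with Pam2CSK4, 177 to 207 with TLR2.CD86, 189 to 244 with anti-CD40, and 273 to 305 with anti-CD40 and Pam2CSK4. Most of this sum was Ccr7, which activated B cells express as well and which was saturated on 4 arrays. The other 8 summed to 5.96 to 6.00 in unstimulated cells, 4.82 to 5.37 with anti-CD86, 5.90 to 6.38 with Pam2CSK4, 4.70 to 4.98 with TLR2.CD86, 8.47 to 10.2 with anti-CD40, and 9.58 to 9.83 with anti-CD40 and Pam2CSK4. In the fit without a slide term the 7 tested genes had a median log2 fold change of -0.46 with TLR2.CD86, 0.43 with anti-CD40 and -0.25 with anti-CD40 and Pam2CSK4, where Zbtb46 rose and Clec9a fell in each. Of 10 macrophage and monocyte markers, 6 were well above background on all arrays and Mrc1, Vsig4 and C1qa on none. Their sum was 12.8 to 13.4 in unstimulated cells and 9.0 to 11.5 over the stimulated arrays. In bulk RNA, fewer cells of a type and less RNA per cell cannot be told apart, and the part of such cells in the class II values was not tested.

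The 8 T cell markers summed to 27.1 to 27.2 in unstimulated cells and to 16.2 to 24.1 over the stimulated arrays, with 7 of 8 well above background on all arrays. The 5 NK cell markers summed to 9.44 to 9.54 in unstimulated cells and to 4.64 to 8.15 over the stimulated arrays. Of the 3 plasma cell markers, the brightest probe of Igj was saturated on all 12 arrays and gave nearly all of their sum of 172 to 257. The other 2 genes summed to 4.68 to 4.78 in unstimulated cells and to 2.10 to 4.89 over the stimulated arrays. The 5 red cell markers lay between 58.4 and 106, with 2 of the 5 well above background on no array. Their part in the members' values was not tested.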

How the data were processed

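Total RNA of RB cells was labelled with Cy3 and hybridised to a custom Agilent mouse array by the authors. Per the file headers, Feature Extraction 10.5.1.1 gave for each spot an intensity with the background subtracted and the spatial trend removed, not scaled between arrays, and flags for saturation, for outliers and for a signal well above background. A table of log2 values deposited for the same arrays served as an alternative. The design is annotated to mm9.

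Here the log2 intensity was taken minus the log2 of each array's 75th percentile, outlier spots were left out and spots of a probe averaged. A probe was tested if a condition had it well above background on each of its arrays, which left 31599 after 70 with missing values were dropped. limma 3.58.1 in R 4.3.3 was fitted to all 12 arrays with 6 condition means, which left 6 residual degrees of freedom, or 5 in the slide-blocked fit. Adjusted p is Benjamini-Hochberg over all probes tested, with a threshold of 0.05. The one-way analysis that the methods name was run as an alternative on the same values. Each member was read on its brightest probe that was saturated on no array, and a saturated probe was given no fold. All members were named, as were genes of the pathway lists past the threshold and the 5 genes most alike in pattern to Ciita and to the members' mean. A result for 1 gene of the pathway lists is not reported here. The fit was tested on simulated data. The members and lists were chosen with earlier results of these data known. Tested alternatives were the scaling, the background correction, the filter, the slide, the replicate number, each array left out and the choice of probe.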

Additional observations from a re-analysis of the deposited data

How the results depend on the processing

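For 24 reported fold changes of members, 238 values were obtained under other settings, leaving out an array aside. Of these, 178 kept direction and side of the threshold, 39 passed the threshold anew, 10 no longer passed it and 11 reversed. The pathway genes are not in this tally. Some settings could not move a fold change, since the filters on dim probes keep its value and can move only its adjusted p. The deposited table, which holds log2 signals minus a constant per array, changed none of them. Scaled to the array median, the log2 fold changes that reversed were H2-Aa (-0.22) and Ciita (-0.13) with TLR2.CD86 and H2-Eb1 (-0.025) and H2-DMa (-0.21) with anti-CD40. H2-Ob with TLR2.CD86 reversed to 0.033 with quantile normalization, 0.23 slide-blocked and 0.24 on slide 1 alone. H2-Aa with anti-CD40 reversed to 0.062 with quantile normalization, 0.20 as the median over its probes, 0.25 slide-blocked and 0.29 on slide 1 alone. Leaving out 1 array, H2-Aa with TLR2.CD86 ranged from -0.21 to 0.34, H2-Ob with TLR2.CD86 from -0.31 to 0.24 and H2-Aa with anti-CD40 from -0.34 to 0.29, the ends being the fits without 1 of the arrays of that stimulus. The cause was not tested.

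The members called changed as follows, against unstimulated cells unless another comparison is named. With median normalization and with no filter on dim probes there were 0 with anti-CD40, 0 with anti-CD40 and Pam2CSK4, and 0 for the latter against TLR2.CD86. In these comparisons the share of all probes was 1.1%, 1.47% and 0.861% with median normalization. With no filter it was 1.82%, 4.06% and 2.05%. Quantile normalization gave 3 with anti-CD40 (20.3% of all probes), 1 for anti-CD40 with Pam2CSK4 against Pam2CSK4 (12.5%) and 2 against TLR2.CD86 (14.1%). The normexp background correction gave 1 with TLR2.CD86 (14.1%), 2 with anti-CD40 (19.1%), 2 with anti-CD40 and Pam2CSK4 (19.9%), and 1 for the latter against Pam2CSK4 (11.5%). Probes well above background on all arrays gave 2 with anti-CD40 (22.6%) and 1 for anti-CD40 with Pam2CSK4 against Pam2CSK4 (13.1%). Slide-blocked, there were 3 with anti-CD86, 5 with TLR2.CD86, 6 with anti-CD40 and 6 with anti-CD40 and Pam2CSK4. For TLR2.CD86 against Pam2CSK4 and anti-CD86 there were 2 and 1. For anti-CD40 with Pam2CSK4 against Pam2CSK4, anti-CD40 and TLR2.CD86 there were 5, 1 and 4. Their shares of all probes are given above. Slide 1 alone, where 4 stimuli have 1 array that is assumed to vary like the other conditions, gave 1 with TLR2.CD86 (20.2%), 4 with anti-CD40 (23%), 6 with anti-CD40 and Pam2CSK4 (40.2%), and 1 and 2 for the latter against Pam2CSK4 (16%) and TLR2.CD86 (20.7%). Leaving out 1 array left 1 array in a condition, and the counts from those fits are not given. With anti-CD40, and in comparisons of anti-CD40 with Pam2CSK4, they changed with the array left out. So did the share of all probes called.

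Of the pathway genes, 1, 1, 5, 7 and 7 were called with Pam2CSK4, anti-CD86, TLR2.CD86, anti-CD40 and anti-CD40 with Pam2CSK4. In that order they were 0, 0, 0, 0 and 1 with median normalization, 0, 0, 0, 1 and 3 with no filter, 4, 9, 15, 18 and 18 slide-blocked, and 0, 0, 9, 13 and 16 on slide 1 alone. The normexp correction gave 8 with TLR2.CD86 (14.1% of all probes). In the order of the stimuli above, the share of all probes called was 0.304%, 0.215%, 0.418%, 1.1% and 1.47% with median normalization. With no filter it was 0.0131%, 0%, 0.0425%, 1.82% and 4.06%. Slide-blocked it was 11.1%, 28.5%, 35.1%, 37.3% and 47.5%, and in the fit without a slide term 0.146%, 2.17%, 10.8%, 16.8% and 18.2%. Counts with 1 array left out changed as well, as did the share of all probes called, and are not given. With the replicate number as a block, the members called were 1 with TLR2.CD86 (24.6% of all probes) and 3 with anti-CD40 (29.8%). For anti-CD40 with Pam2CSK4 against Pam2CSK4 there was 1 (17%). The pathway genes called were then 5, 10, 14 and 12 with the last 4 stimuli, against 12.6%, 24.6%, 29.8% and 27% of all probes. Whether equal numbers share an animal or culture is not given in the labels. Of 15 pairs of conditions, 6 had same-numbered arrays that deviated together (r from 0.54 to 0.67), which were the pairs where both conditions lay on both slides, and the lowest r was -0.11. The methods' one-way analysis without moderation gave no member an adjusted p under 0.05, the lowest being 0.101 for H2-DMa. Saturation limits Cd74 and the brightest H2-Ab1 probe, which gave no fold, so the choice of the brightest probe regardless of saturation left those genes without a value.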
